A study of Mus musculus with 2 samples.

Results

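The 10 genes described here are imprinted genes with known roles in growth, namely Igf2, H19, Cdkn1c, Peg3, Meg3, Dlk1, Grb10, Igf2r, Plagl1 and Ndn. They were taken by symbol from the 27514 genes of a single-cell count matrix of aortic endothelium, and each symbol matched 1 row. Mouse embryos of strain C57Bl6/J x B6129SF1/J were dissected around the dorsal aorta at embryonic day 10.5, when blood cells are formed from the vessel wall. One library was made from wild-type embryos and 1 from SP3-null embryos (labelled SP3KO), littermates of Sp3+/- by Sp3+/- matings that carried the germline Sp3tm1Sus allele, so every cell type of an SP3-null embryo lacks SP3. How many embryos were pooled per library is not stated in the sources used here, and live cells were sorted as Ter119-, CD41 low or negative, CD31+, CD144+ and ESAM+. With 1 library per genotype, a difference between them has no replicate check, no p-value is given, and genotype, pool and library cannot be told apart.

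Imprinted genes are transcribed mainly from the copy inherited from one parent, which is marked by DNA methylation set in the germline. Of the genes here, Igf2, Dlk1, Peg3, Plagl1 and Ndn are expressed from the paternal copy, and H19, Cdkn1c, Meg3, Igf2r and, in most tissues, Grb10 from the maternal copy. Igf2 encodes a fetal growth factor, and Igf2r a receptor that clears it from the cell surface to the lysosome. Cdkn1c encodes the cyclin-dependent kinase inhibitor p57, Grb10 an adaptor that restrains insulin and IGF receptor signalling, and Dlk1 a transmembrane protein related to Notch ligands. Peg3 and Plagl1 encode zinc finger proteins and Ndn encodes necdin, a growth suppressor, while H19 and Meg3 are long noncoding RNAs. Several of these genes have been studied together as a network of maternally and paternally expressed genes that is kept on in quiescent stem cells. SP3 is a zinc finger transcription factor that binds GC boxes in promoters.

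In GRCm38.p6 coordinates, H19 (chr7:142575530-142578146), Igf2 (chr7:142650768-142666816) and Cdkn1c (chr7:143458339-143461059) lie near the distal end of chromosome 7. Peg3 (chr7:6703892-6730462) lies at its proximal end and Ndn (chr7:62348277-62349928) in its middle. Dlk1 (chr12:109452485-109463336) and Meg3 (chr12:109540996-109571729) are neighbours on chromosome 12. Grb10 (chr11:11930499-12037428), Plagl1 (chr10:13090832-13131694) and Igf2r (chr17:12682406-12769706) stand on chromosomes of their own, and none of the genes shares chromosome 2 with Sp3 (chr2:72936430-72980446). Igf2 overlaps the antisense gene Igf2os, Igf2r overlaps Airn, and Meg3 overlaps Rtl1. No source used here gives the strand setting of the counting, so counts of these overlapping genes are uncertain where their transcripts meet. Counts do not tell the parental copies apart, and imprinting itself was not measured.

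Upstream sequences from RefSeq (GRCm38.p6) are printed because Peg3, Plagl1 and Meg3, 3 in all, showed the largest differences between the libraries among the abundant genes of the group when UMIs were summed over the endothelial classes. The GC box was searched as GGGCGG and its complement CCGCCC, and capitals mark each match. The first sequence is the stretch chr7:6730463-6730558, read on the minus strand, that separates the start of Peg3 from that of its divergent partner Usp29 (chr7:6730559-6967220). The others are the 250 bases before the Plagl1 start (chr10:13090582-13090831, plus strand) and the 250 bases before the Meg3 start (chr12:109540746-109540995, plus strand).
Peg3 to Usp29: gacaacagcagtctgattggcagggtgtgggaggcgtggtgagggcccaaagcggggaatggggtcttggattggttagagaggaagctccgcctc
Plagl1: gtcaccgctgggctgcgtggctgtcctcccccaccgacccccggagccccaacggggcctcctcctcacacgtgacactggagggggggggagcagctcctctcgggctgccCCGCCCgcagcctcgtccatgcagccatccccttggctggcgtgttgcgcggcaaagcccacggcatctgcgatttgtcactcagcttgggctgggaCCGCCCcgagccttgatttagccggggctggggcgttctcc
Meg3: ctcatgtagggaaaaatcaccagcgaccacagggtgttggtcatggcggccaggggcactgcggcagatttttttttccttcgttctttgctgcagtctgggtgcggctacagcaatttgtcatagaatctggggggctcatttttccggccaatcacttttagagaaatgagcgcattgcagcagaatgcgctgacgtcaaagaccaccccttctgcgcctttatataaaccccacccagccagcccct
The 96 bases between Peg3 and Usp29 hold 0 of these boxes, the Plagl1 sequence holds 2 and the Meg3 sequence holds 0. Of all 32851 RefSeq windows of 250 upstream bases, 10756 (32.7%) hold at least 1. RefSeq windows were found for 8 of the 10 genes, 13 windows in all, and 5 windows of 4 genes hold a box, with 5 in a window of Grb10, 3 at Igf2r, 2 at Plagl1 and 2 and 1 in a pair of Igf2 windows. The windows of Peg3, Meg3, Dlk1 and Ndn hold 0, which says only that these letters do not occur there.

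There were 4451 wild-type cells, with 79456081 UMIs (unique molecular identifiers, each counting 1 captured transcript), and 3954 SP3-null cells, with 71154918 UMIs. Cells carry the deposited class names. Arterial endothelium (AE) and venous endothelium (VE) each have a Wnt-high and a Wnt-low class, conflux AE and pre-HE lie on the path from AE to hemogenic endothelium (HE), and IAC are the cells of the intra-aortic clusters that bud from HE. The largest class is other endothelium. The 9 classes held 40 to 1624 cells per library and 891135 to 31918875 UMIs, with median depths of 8850 to 31009 UMIs per cell. Sums over marker lists followed the class names in part, and single markers did not all do so. The summed level of 8 blood cluster markers was 1119 and 1161 CPM (the UMIs of a gene scaled to a fixed total of UMIs) in IAC in the wild-type and SP3-null library, against at most 104 outside HE and IAC, and 8 endothelial markers were lowest in IAC at 513 and 489 CPM. The sum of 5 venous markers was 511 to 589 CPM in the VE classes and 352 to 401 CPM in the Wnt-high and Wnt-low AE classes. It was highest in other endothelium, at 739 and 681 CPM, above the VE classes. Ephb4 (39.4 and 36.6 CPM in VE, 40.7 and 38.3 CPM in AE) and Flt4 (75.5 and 72.7 CPM, 77.6 and 71.9 CPM) were no higher in VE than in AE beyond counting error. The arterial marker Gja5 stood at 377 and 356 CPM in conflux AE but at 2.05 and 1.58 CPM in Wnt-high AE. The libraries shared 5 barcode sequences. Levels are given as CPM with exact Poisson 95% intervals and ratios as log2 of the SP3-null over the wild-type CPM with exact 95% intervals, which cover counting error only. The kit counts the 3' end of a transcript once whatever its length, so levels were not divided by gene length.

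Sp3 itself was lower in the SP3-null library. For this value the UMIs of the 6 classes Wnt-high AE, Wnt-low AE, Wnt-high VE, Wnt-low VE, conflux AE and pre-HE were added up, a sum called the summed endothelium here. Sp3 stood there at 46.3 wild-type CPM and 35.6 SP3-null CPM, a log2 ratio of -0.38 (-0.48 to -0.28). Its transcripts were still counted in both libraries. No source used here gives the exons that the allele removes relative to the counted 3' end, so this level is no check of the genotype if the counted end lies outside the deletion.

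The imprinted genes ranged widely in abundance. H19 had 120008 UMIs over all cells, rank 166 of 27514 genes, followed by Cdkn1c with 55306 (rank 362), Meg3 with 47712 (rank 438), Plagl1 with 41753 (rank 502) and Peg3 with 41687 (rank 505). Grb10 had 29004, Igf2r 12949 and Ndn 10786 UMIs. At the other end, the growth factor Igf2 had 1138 UMIs (rank 8163) and Dlk1 had 690 (rank 9168). The summed level of the 10 genes was lowest in IAC in both libraries, at 1124 and 1318 CPM, and highest in conflux AE, at 5762 and 5922 CPM. Because the classes were assigned from expression, differences between classes are descriptions and carry no test.

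**Figure D1:**
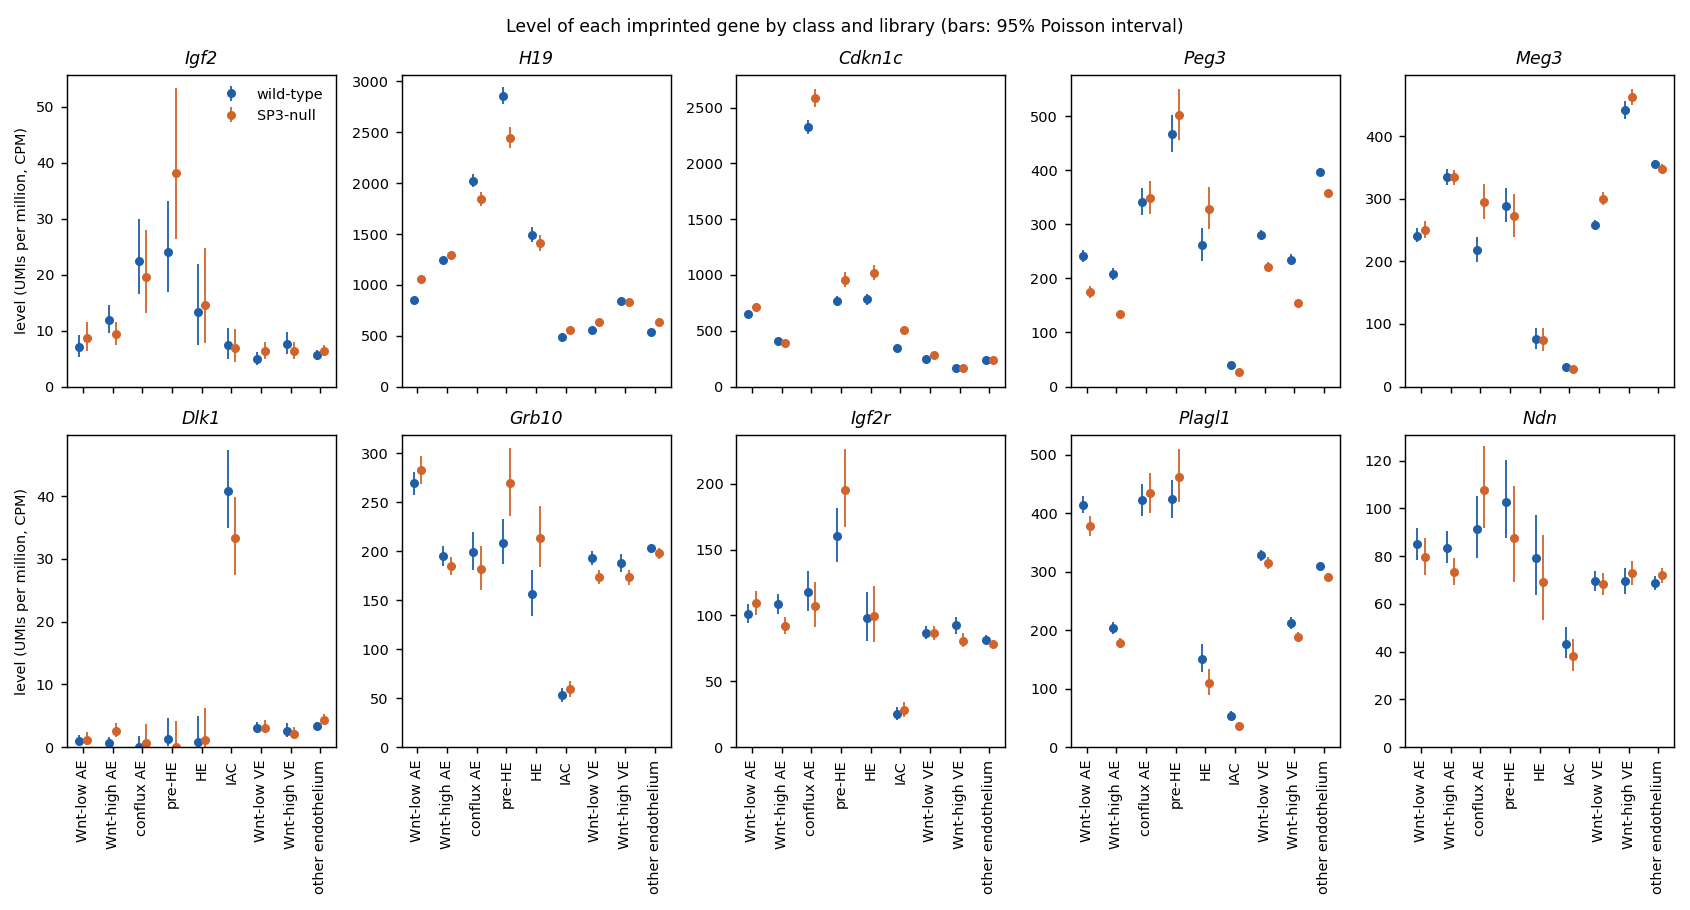
Level of each imprinted gene in the 9 classes, in CPM on a linear axis, with 1 point per library (wild-type and SP3-null) and exact Poisson 95% intervals as bars. Cdkn1c peaks in conflux AE at 2324 and 2587 CPM, Dlk1 in IAC at 40.8 and 33.3 CPM, and 7 of the other genes have their lowest level in IAC in both libraries.

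H19 and Igf2, which share enhancers at the distal end of chromosome 7, stood in almost the same order along the arterial classes. H19 was highest in pre-HE, at 2859 CPM (2775 to 2944) in wild-type and 2446 CPM (2345 to 2551) in SP3-null cells. It stood at 2024 and 1841 CPM in conflux AE, 1492 and 1412 CPM in HE, 1245 and 1293 CPM in Wnt-high AE and 851 and 1056 CPM in Wnt-low AE. The venous classes were lower, with 843 and 832 CPM in Wnt-high VE and 555 and 631 CPM in Wnt-low VE, and IAC was the lowest at 487 and 555 CPM. In both libraries each class from pre-HE down to Wnt-high VE lay above the next, with overlapping intervals for Wnt-low AE and Wnt-high VE in wild-type cells, while Wnt-low VE and other endothelium (541 and 636 CPM) changed places between the libraries.

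Igf2 was also highest in pre-HE, at 24.1 CPM (16.9 to 33.2, 37 UMIs) in wild-type and 38.2 CPM (26.4 to 53.3, 34 UMIs) in SP3-null cells. Conflux AE followed at 22.5 and 19.6 CPM and HE at 13.3 and 14.5 CPM. In the other classes Igf2 stood between 4.86 and 11.9 CPM, and the classes from Wnt-low AE to other endothelium could not be ordered beyond their counting intervals. Over the 18 profiles, 9 classes in each of 2 libraries, log2(CPM + 1) of Igf2 and H19 had a Pearson r of 0.93. These profiles share libraries and classes, and the value is a description. Within a class the 2 genes gave no such relation at this depth, with a Spearman rho over cells thinned to 5000 UMIs of -0.17 to 0.30 and a median of 0.01.

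Cdkn1c, whose protein p57 holds cells in G1, was the gene with the sharpest arterial peak. It reached 2324 CPM (2260 to 2390) in wild-type and 2587 CPM (2506 to 2670) in SP3-null conflux AE. HE followed at 780 and 1018 CPM, pre-HE at 763 and 959 CPM, Wnt-low AE at 653 and 715 CPM and Wnt-high AE at 405 and 387 CPM. IAC held 343 and 507 CPM and the venous classes 165 to 286 CPM, so that the highest class lay 14.1-fold above the lowest in wild-type and 15.6-fold in SP3-null cells. HE and pre-HE were not separated by their intervals in either library, and IAC and Wnt-high AE changed places between the libraries. When each cell was thinned to 5000 UMIs, conflux AE cells held a mean of 11.9 and 12.2 Cdkn1c UMIs, and only 0.714% and 2.83% of them held 0. The corresponding share in Wnt-high VE was 54.1% and 52.1%.

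Kcnq1ot1, the noncoding RNA that silences the paternal copy of the Cdkn1c domain (chr7:143213111-143296547), also peaked in conflux AE, at 684 and 760 CPM against 266 and 277 CPM in Wnt-low AE. Unlike Cdkn1c, it stood higher in IAC (415 and 398 CPM) than in either AE class in both libraries. Among cells of a class the 2 transcripts were only weakly related, with a Spearman rho of -0.06 to 0.29 over the 18 profiles.

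Peg3 and Plagl1 shared a low level in IAC but differed elsewhere. Peg3 was highest in pre-HE, at 466 CPM (433 to 502) in wild-type and 502 CPM (456 to 550) in SP3-null cells. Other endothelium stood at 397 and 357 CPM and conflux AE at 342 and 349 CPM. Wnt-low VE held 280 and 221 CPM, HE 261 and 328 CPM, Wnt-low AE 241 and 175 CPM, Wnt-high VE 235 and 155 CPM and Wnt-high AE 208 and 135 CPM. In IAC it stood at 39.4 and 26.7 CPM, which put the highest class 11.8-fold and 18.8-fold above the lowest. HE took rank 5 in wild-type and rank 4 in SP3-null cells, and conflux AE, HE and pre-HE were the classes in which Peg3 did not lie lower in the SP3-null library. Usp29, its divergent neighbour, was much less abundant, at 11.2 and 10.1 CPM in the summed endothelium.

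Plagl1 separated the Wnt-low from the Wnt-high arterial class. It stood at 414 CPM (400 to 429) and 378 CPM (361 to 395) in Wnt-low AE, against 203 CPM (193 to 214) and 178 CPM (169 to 187) in Wnt-high AE. The venous classes showed the same direction, with 328 and 315 CPM in Wnt-low VE and 212 and 189 CPM in Wnt-high VE. Pre-HE (424 and 462 CPM) and conflux AE (422 and 433 CPM) overlapped each other, HE was at 151 and 109 CPM and IAC at 54.1 and 36.2 CPM.

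Meg3 and Dlk1, neighbours expressed from opposite parental copies, were opposed in IAC, where Meg3 was lowest and Dlk1 highest. They were not opposed in every class, and other endothelium took rank 2 for both. Meg3 was highest in Wnt-high VE, at 441 CPM (427 to 455) and 463 CPM (450 to 475), and stood at 334 and 334 CPM in Wnt-high AE. In the other classes outside HE and IAC it lay between 218 and 355 CPM. HE held 75.6 and 73.7 CPM and IAC 30.8 and 27.5 CPM. The Meg3 level was thus lower in HE than in every endothelial class, with no overlap of intervals in either library.

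Dlk1 was near the limit of counting in endothelium and was found mainly in IAC. IAC held 172 and 116 Dlk1 UMIs, 40.8 CPM (34.9 to 47.4) and 33.3 CPM (27.5 to 39.9), in 48 of 128 wild-type cells (37.5%, exact binomial interval 29.1 to 46.5%) and 35 of 107 SP3-null cells (32.7%, 24.0 to 42.5%). The venous classes held 2.15 to 3.14 CPM and other endothelium 3.35 and 4.39 CPM, and at most 4.06% of their cells had a UMI. Conflux AE held 0 and 1 UMIs, pre-HE 2 and 0, and HE 1 and 1. IAC cells were deeper than the others, but after thinning to 5000 UMIs 17.5% and 10.7% of IAC cells still had a Dlk1 UMI, against at most 1.70% in any other class. The 3 cells with the most UMIs held 22.7% of the Dlk1 UMIs of wild-type IAC and 37.1% of those of SP3-null IAC.

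Grb10, Igf2r and Ndn were each lowest in IAC. Grb10 was highest in Wnt-low AE, at 269 and 283 CPM, and lay between 156 and 269 CPM in the other endothelial classes and HE. Igf2r was highest in pre-HE, at 160 and 195 CPM, and lay between 78.2 and 118 CPM elsewhere outside IAC. Ndn ranged only from 68.1 to 108 CPM outside IAC, and neighbouring classes mostly could not be ordered. In IAC, Grb10 stood at 53.1 and 59.4 CPM, Igf2r at 25.4 and 28.4 CPM and Ndn at 43.4 and 38.2 CPM. Airn, the noncoding RNA that silences the paternal copy of Igf2r, was likewise low in IAC, at 4.03 and 2.58 CPM against 22.5 and 21.2 CPM in the summed endothelium.

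Set against AE, IAC had lower levels of most of the imprinted genes in both libraries. A class difference was counted where log2 CPM differed by at least 1 in the same direction in both libraries. In this way 6 of the 10 genes were lower in IAC than in AE, against 16.1% of the 11187 genes with at least 50 UMIs, and 1, Dlk1, was higher, against 9.36%. Meg3 had the largest difference, -3.22 in wild-type and -3.46 in SP3-null cells, followed by Plagl1 (-2.52 and -2.80), Peg3 (-2.51 and -2.49), Grb10 (-2.13 and -1.90), Igf2r (-2.05 and -1.79) and H19 (-1.10 and -1.12). Ndn differed by -0.96 and -0.99, just short of the fold, and Igf2 by -0.36 and -0.40. Dlk1 was higher by 5.65 and 4.02, from 12 and 29 UMIs in AE. The median over the 10 genes was -1.58 and -1.46, and over all genes -0.0027 and 0.0064.

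**Figure D2:**
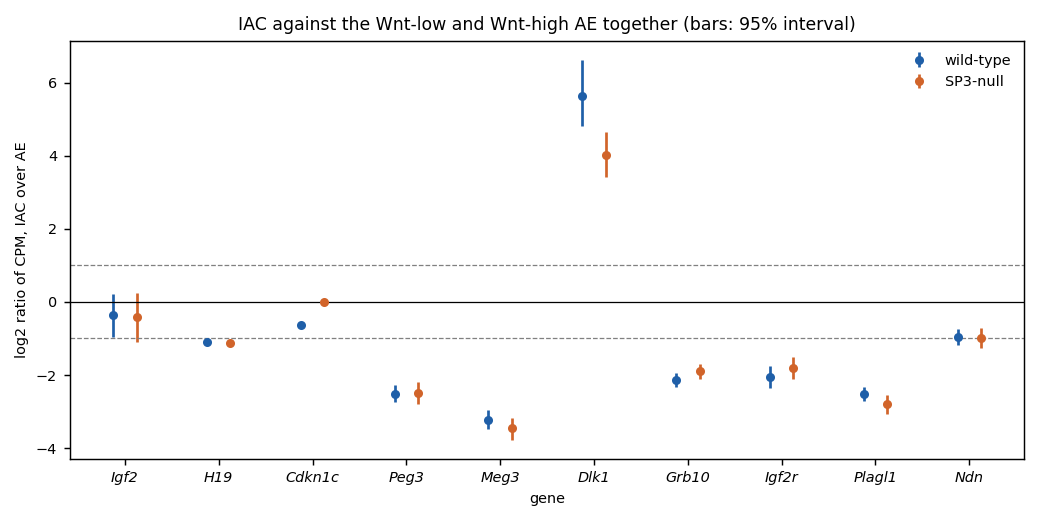
Log2 difference in CPM between IAC and AE for each imprinted gene, with 1 point per library and the fold of 1 log2 unit marked. Dlk1 lies above it in both libraries, 6 genes lie below it, and Cdkn1c lies at -0.63 in wild-type and -0.01 in SP3-null cells.

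Some other imprinted genes were lower in IAC as well. Of 21 imprinted genes elsewhere in the genome with enough UMIs, 7 were lower, against the 16.1% of all genes given above. None was higher, against 9.36%, and the rest passed the fold in neither direction. Among them, Mest, a paternally expressed gene of mesoderm, stood at 1768 and 1643 CPM in the summed endothelium and at 66.9 and 37.6 CPM in IAC, a difference from AE of -4.91 and -5.58. Peg10 differed by -3.13 and -3.65 and Asb4 by -4.87 and -6.10. Of 13 measured neighbours in the imprinted domains of the 10 genes, 5 were lower, against 16.1%, and 1 was higher, against 9.36%. Among the lower ones were Cd81 (-1.81 and -2.01), Airn (-2.73 and -3.18) and Usp29 (-1.70 and -1.74). The higher one was Slc22a3, which had 0 UMIs in AE. Of 20 measured genes of the IGF pathway, 4 were lower, a share near the 16.1% of all genes, and 0 were higher, against 9.36%. The 4 are binding proteins of IGF, among them Igfbp3 (-5.77 and -4.34) and Igfbp2 (-3.61 and -3.44). Among 12 genes that set or keep imprints, Zfp57 was lower (-2.79 and -2.35), where 16.1% of all genes were lower. The DNA methyltransferases Dnmt3a (3.04 and 3.23) and Dnmt3b (3.20 and 3.16) were higher, where 9.36% of all genes were higher. These genes were named after their values were seen.

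Earlier along the trajectory fewer of the genes differed from AE. In pre-HE, 3 of 9 measured genes were higher than in AE, against 5.94% of genes, namely Igf2 (1.35 and 2.07), H19 (1.45 and 1.02) and Peg3 (1.06 and 1.75), and 0 were lower, against 4.34%. In conflux AE, 2 of 9 were higher, against 3.76%, namely Cdkn1c (2.13 and 2.34) and Igf2 (1.26 and 1.10), and 0 were lower, against 3.16%. In HE, 2 of 9 were lower, against 7.73%, namely Meg3 (-1.93 and -2.04) and Plagl1 (-1.03 and -1.20), and 0 were higher, against 5.56%. Plagl1 was also the only one of them lower in Wnt-high than in Wnt-low AE, by -1.03 and -1.09, against 0.893% of genes, and 0 were higher, against 2.82%. Between Wnt-high and Wnt-low VE, 0 were higher, against 1.56%, and 0 lower, against 0.824%. Cdkn1c was the only one lower in VE than in AE, by -1.29 and -1.16, against 2.84%, and 0 were higher, against 0.431%. In other endothelium Cdkn1c was again lower than in AE, by -1.17 and -1.07, against 5.58% of genes, and Dlk1 higher, by 2.04 and 1.10, against 2.39%.

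Neighbouring steps of the trajectory placed the drops of single genes. From conflux AE to pre-HE only Cdkn1c was lower, by -1.61 and -1.43, against 1.58% of genes, and 0 were higher, against 2.43%. From pre-HE to HE, Meg3 (-1.93 and -1.88) and Plagl1 (-1.49 and -2.08) were lower, 2 genes against 6.9%, and 0 were higher, against 3.18%. From HE to IAC, 7 were lower, against 6.72%, with Peg3 (-2.73 and -3.62) first, then Igf2r (-1.95 and -1.81), Grb10 (-1.56 and -1.84), H19 (-1.62 and -1.35), Plagl1 (-1.48 and -1.60), Meg3 (-1.29 and -1.42) and Cdkn1c (-1.19 and -1.01). Dlk1 was the 1 gene higher in IAC than in HE, against 3.53%, where HE held 1 Dlk1 UMI in each library.

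Between the libraries, no imprinted gene passed the fold used for genotype in the summed endothelium. In that sum 0 of 10 genes were higher by 0.5 log2 units, against 2.41% of 11814 genes with at least 50 UMIs, and 0 were lower by 0.5, against 5.17%. The median log2 ratio was -0.06, beside -0.02 over all these genes. The counting interval lay above 0 for 2 of them, against 12.9% of genes, and below 0 for 5, against 21% of genes. Abundant genes have narrow intervals, and most of the 10 are abundant. Within single classes the fold was passed by few of them. In Wnt-high AE, Peg3 was the 1 gene lower, against 4.67% of genes, and 0 were higher, against 2.35%. Likewise in Wnt-high VE only Peg3 was lower, against 4.11%, and 0 were higher, against 2%. In pre-HE, Igf2 was the 1 gene higher, at 0.66 (-0.05 to 1.38), against 7.38%, and 0 were lower, against 7.27%. In conflux AE 0 were higher and 0 lower, against 4.96% and 6.35%, and the same held in HE against 8.25% and 7.02%, in Wnt-low AE against 2% and 4.58%, in Wnt-low VE against 1.97% and 4.09% and in other endothelium against 2.12% and 4.56%.

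**Figure D3:**
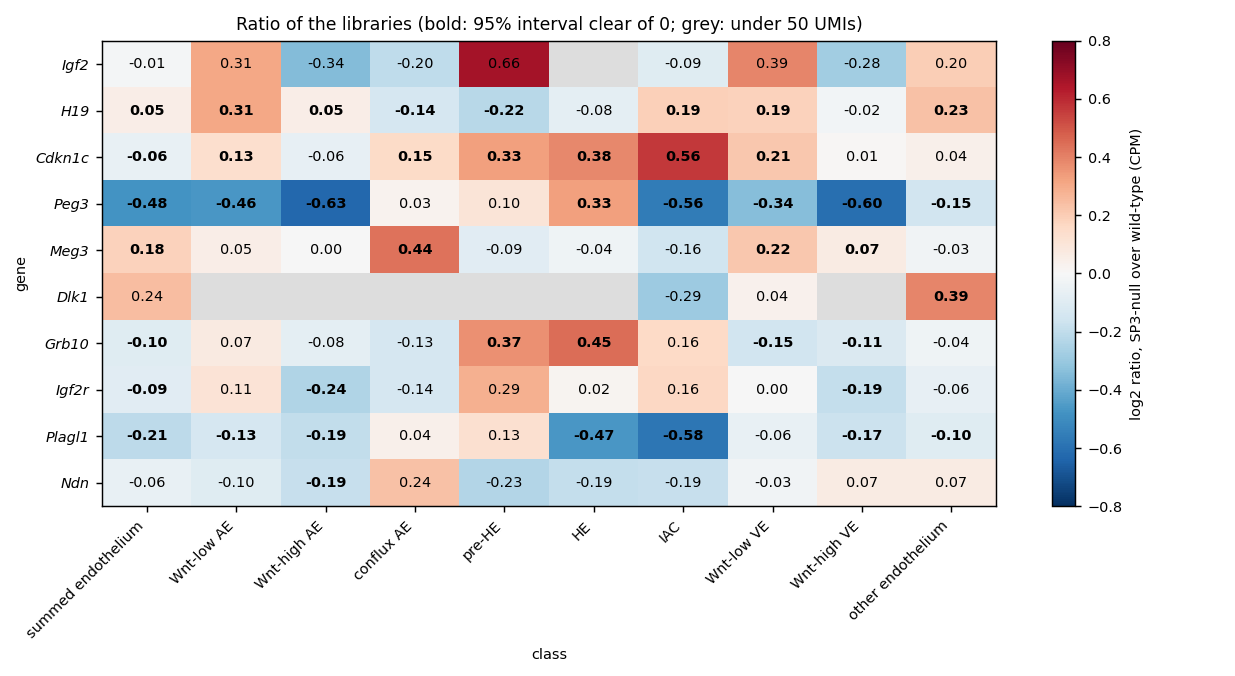
Log2 ratio of SP3-null over wild-type CPM for each imprinted gene in each class and in the summed endothelium, as a colour with its value. Peg3 has its lowest values in Wnt-high AE (-0.63) and Wnt-high VE (-0.60), and Cdkn1c its highest in IAC (0.56).

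Peg3 had the largest difference in the summed endothelium. It stood at 261 CPM (256 to 266) in wild-type and 188 CPM (184 to 192) in SP3-null cells, a log2 ratio of -0.48 (-0.52 to -0.43). With each of the 6 classes weighted alike it was -0.21. The ratio lay below 0 beyond counting error in 6 of 9 classes, with -0.63 (-0.74 to -0.52) in Wnt-high AE, -0.60 (-0.69 to -0.51) in Wnt-high VE, -0.56 (-0.94 to -0.19) in IAC, -0.46 (-0.58 to -0.35) in Wnt-low AE, -0.34 (-0.41 to -0.27) in Wnt-low VE and -0.15 (-0.19 to -0.12) in other endothelium. In conflux AE (0.03) and pre-HE (0.10) the interval held 0. In HE the ratio was 0.33 (0.09 to 0.57), from 261 to 328 CPM, but with either of 2 cell filters the ratio was smaller and its interval held 0. It was 0.25 (-0.04 to 0.54) without the 3 cells with the most Peg3 UMIs in each library, and 0.23 (-0.03 to 0.48) without cells carrying neural markers. In arterial endothelium alone Peg3 passed the fold at -0.59 (-0.67 to -0.51), from 224 to 150 CPM. The ratio of the divergent gene Usp29 was -0.16 (-0.36 to 0.04) in the summed endothelium and -1.02 (-1.62 to -0.43) in Wnt-high AE, from 67 and 40 UMIs.

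In the AE and VE classes more SP3-null than wild-type cells lacked a Peg3 UMI at equal depth. After thinning to 5000 UMIs, 49.5% of wild-type and 62.9% of SP3-null Wnt-high AE cells held 0 Peg3 UMIs, and the mean per cell was 1.07 and 0.684. The corresponding shares were 45.7% and 56.8% in Wnt-low AE, 47.5% and 53.7% in Wnt-high VE, 46.0% and 53.9% in Wnt-low VE and 32.7% and 39.6% in other endothelium. They were 37.9% and 40.6% in conflux AE and 87.3% and 87.4% in IAC, and had the other order in pre-HE (23.5% and 20.3%) and HE (50.9% and 41.7%). Thinned ratios were -0.65 in Wnt-high AE, -0.40 in Wnt-high VE, -0.23 in Wnt-low AE and -0.21 (-1.19 to 0.75) in IAC, where few UMIs remained.

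Cdkn1c showed a class pattern that the sum hid. In the summed endothelium its ratio was -0.06 (-0.09 to -0.03), from 453 to 434 CPM. Yet in 8 of 9 classes the ratio was above 0, and in 6 the interval lay above 0, namely IAC (0.56, 0.46 to 0.66), HE (0.38, 0.25 to 0.52), pre-HE (0.33, 0.20 to 0.46), Wnt-low VE (0.21, 0.15 to 0.28), conflux AE (0.15, 0.09 to 0.22) and Wnt-low AE (0.13, 0.07 to 0.19). With each of the 6 endothelial classes weighted alike the ratio was 0.16. Conflux AE, the class richest in Cdkn1c, supplied 5.06% of summed wild-type and 3.76% of summed SP3-null UMIs, and Wnt-high VE, the poorest, 20.6% and 28.2%. After thinning, the intervals for conflux AE (0.05) and Wnt-low AE (0.01) held 0, while IAC (0.61), HE (0.40), Wnt-low VE (0.25) and pre-HE (0.21) stayed above it. In IAC, 343 CPM (325 to 361) in wild-type compared with 507 CPM (483 to 531) in SP3-null cells, and the ratio was 0.57 without the 3 cells with the most Cdkn1c UMIs in each library.

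Plagl1 was lower in the SP3-null library in the summed endothelium, from 306 CPM (300 to 311) to 264 CPM (259 to 270), a ratio of -0.21 (-0.25 to -0.17). None of the 6 classes in the sum had a ratio this low, and with each class weighted alike the ratio was -0.03. Wnt-high AE and Wnt-high VE, where Plagl1 is less abundant, supplied 17.4% and 20.6% of the summed wild-type UMIs but 22.5% and 28.2% of the SP3-null UMIs. Its interval lay below 0 in 6 classes and above 0 in none, and the ratios were largest in IAC (-0.58, -0.91 to -0.26) and HE (-0.47, -0.84 to -0.10). In Wnt-high AE, Wnt-high VE, Wnt-low AE and other endothelium they were -0.19, -0.17, -0.13 and -0.10. The interval held 0 in Wnt-low VE (-0.06), conflux AE (0.04) and pre-HE (0.13).

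H19 moved in both directions. Its ratio in the summed endothelium was 0.05 (0.03 to 0.07), from 945 to 980 CPM, and -0.05 with each class weighted alike. It was 0.31 (0.26 to 0.36) in Wnt-low AE, 0.23 (0.20 to 0.26) in other endothelium and 0.19 in both IAC and Wnt-low VE. In the classes where H19 was most abundant it was below 0, at -0.22 (-0.30 to -0.15) in pre-HE and -0.14 (-0.21 to -0.07) in conflux AE. The highest and the lowest class thus lay closer together in SP3-null cells, 4.41-fold apart, than in wild-type cells, 5.87-fold apart.

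Meg3 was higher in the SP3-null sum, at 305 CPM (300 to 310) and 346 CPM (340 to 352), a ratio of 0.18 (0.15 to 0.22), or 0.10 with each class weighted alike. Within classes its interval lay above 0 in conflux AE (0.44, 0.24 to 0.63), Wnt-low VE (0.22, 0.15 to 0.28) and Wnt-high VE (0.07, 0.01 to 0.13). Grb10 was 0.45 (0.14 to 0.75) in HE and 0.37 (0.12 to 0.61) in pre-HE but -0.15 (-0.23 to -0.07) in Wnt-low VE and -0.11 (-0.21 to -0.02) in Wnt-high VE. The HE value of Grb10 was 0.17 (-0.19 to 0.52) without the cells with neural markers. Igf2r was below 0 in Wnt-high AE (-0.24, -0.38 to -0.10) and Wnt-high VE (-0.19, -0.33 to -0.05), and Ndn in Wnt-high AE (-0.19, -0.35 to -0.02). The Igf2 interval held 0 in every class, and its ratio in the sum was -0.01 (-0.23 to 0.20). Dlk1 was 0.24 (-0.20 to 0.69) in the sum and -0.29 (-0.65 to 0.05) in IAC. In Wnt-high AE it had 5 and 23 UMIs, of which 14 of the SP3-null UMIs lay in 1 cell.

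In IAC, 1 of the 10 genes was higher by 0.5 log2 units, against 3.14% of genes, and 2 were lower, against 6.22%. Cells with at least 3 macrophage marker UMIs made up 7 of 128 wild-type and 8 of 107 SP3-null IAC cells, and the summed macrophage marker level was 168 and 255 CPM, with all 8 markers detected in both libraries. These cells held 24.0 and 26.9 CPM of Cdkn1c, far under the level of the class. Without them the IAC ratios were 0.61 for Cdkn1c, -0.54 for Peg3 and -0.53 for Plagl1. In HE, 3 of 59 and 4 of 40 cells had at least 3 neural marker UMIs other than Nes, and the neural sum, Nes included, was 190 and 294 CPM. These cells held 366 and 517 CPM of Grb10. Without them the Cdkn1c ratio in HE was 0.46 and the Plagl1 ratio -0.58.

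Other markers of HE and IAC differed between the libraries too. In HE the sum of 8 arterial markers was 1299 and 910 CPM, with Gja4 at 387 and 199 CPM (-0.96) and Dll4 at 49.8 and 24.6 CPM (-1.02), and the endothelial sum was 1723 and 1498 CPM. Runx1, a transcription factor that HE needs to form blood, stood at 356 and 242 CPM (-0.55) in HE, while the sum of the blood cluster markers was 901 and 891 CPM. In IAC the venous sum was 38.9 and 18.7 CPM. The endothelial sum there was 513 and 489 CPM, and its markers went both ways. The VEGF receptor gene Kdr (49.8 and 24.1 CPM, -1.05), Tek (-0.45) and Eng (-0.43) were lower, while Pecam1 (0.28) and Cdh5 (0.18) were higher. The arterial sum in IAC was 87.0 and 78.9 CPM, with Sox17 higher (1.00, from 37 and 61 UMIs) but Gja5 (-1.31) and Gja4 (-0.57) lower. The sum of 4 Y-linked genes was 32.9 and 117 CPM in HE. For IAC the same sum was 55.7 and 122 CPM. Xist, the noncoding RNA of the inactive X chromosome in females, was lower in HE (692 and 308 CPM) and IAC (320 and 190 CPM) but higher in conflux AE (354 and 689 CPM), Wnt-high AE (442 and 593 CPM) and pre-HE (459 and 613 CPM). The cells of these classes were thus unlike in other respects than the imprinted genes, and the part of these differences in the ratios of the imprinted genes was not tested.

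The genes around the imprinted clusters had ratios near 0 for the most part. Of 15 measured neighbours, 0 were at least 0.5 log2 units higher, against 2.41% of all genes, and 1 was lower, against 5.17%. The lower one was Magel2, with 38 and 14 UMIs (-1.35), and the median over the neighbours was 0.02. The most abundant were Cd81 (841 and 927 CPM), Kcnq1ot1 (261 and 259 CPM) and Nap1l4 (162 and 164 CPM), and the highest ratio among those with at least 200 UMIs was that of Snrpn (0.29, 0.13 to 0.45). Kcnq1ot1 was higher in pre-HE (0.53, 0.36 to 0.71), HE (0.47, 0.29 to 0.65) and conflux AE (0.15, 0.04 to 0.27). Cdkn1c was higher in these classes as well, although in conflux AE its interval held 0 after thinning. In IAC, where the Cdkn1c ratio was highest (0.56), Kcnq1ot1 was not higher in the SP3-null library. Of 22 other imprinted genes, 2 were higher, against 2.41% of all genes, and 0 were lower, against 5.17%. The higher ones were Gatm (10.8 and 19.6 CPM, 0.86, 0.69 to 1.03) and Nap1l5 (32 and 45 UMIs, 0.59, -0.10 to 1.29). The median over the 22 genes was 0.05. The most abundant of them were Mest, with a ratio of -0.11 (-0.12 to -0.09), and Gnas, at 1391 and 1405 CPM.

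Of 20 measured IGF pathway genes, 1 was higher by 0.5, against 2.41% of all genes, and 0 were lower, against 5.17%. The higher one was the binding protein gene Igfbp7 (36.7 and 59.4 CPM, 0.70, 0.60 to 0.79). Igf1, the ligand closest to Igf2, had the lowest ratio, with 65.3 and 50.1 CPM (-0.38, -0.46 to -0.30), although in pre-HE its ratio was 1.44 (0.91 to 1.97). Igf1r, the receptor of both, stood at 80.7 and 81.0 CPM. Among the other cyclin-dependent kinase inhibitors, 4 were measured. Of these, Cdkn1a passed the fold upward, against 2.41% of all genes, and Cdkn2c downward, against 5.17%. Cdkn1a stood at 43.6 and 65.3 CPM in the sum (0.58, 0.50 to 0.67), a ratio that none of the 6 classes reached. It was 0.38 (0.28 to 0.49) in Wnt-high AE, the class richest in Cdkn1a (163 and 212 CPM), which supplied 17.4% of wild-type and 22.5% of SP3-null UMIs of the sum, and its interval held 0 in the other 5. In HE it was -1.52 (-3.30 to -0.04), from 18 and 5 UMIs. Cdkn2c had 51 and 31 UMIs (-0.62, -1.32 to 0.05), and Cdkn1b stood at 0.29 (0.17 to 0.41). Cdkn2d stood at -0.16 (-0.28 to -0.03) in the sum and at -1.18 (-1.95 to -0.47) in pre-HE, from 82 and 21 UMIs. Of 12 measured genes that set or keep imprints, 0 passed the fold in either direction, against 2.41% higher and 5.17% lower of all genes. Their median was -0.02. Ctcf, which insulates Igf2 from its enhancers on the maternal copy, stood at 139 and 137 CPM, Dnmt1 at 114 and 116 CPM, Trim28 at 118 and 108 CPM and Zfp57 at 36.3 and 35.6 CPM.

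Cells rich in Cdkn1c held fewer mitotic transcripts. Each cell was thinned to 5000 UMIs, and the UMIs of 21 mitosis genes such as Mki67, Top2a and Ccnb1 were averaged over cells with 0, 1 to 4, and 5 or more Cdkn1c UMIs. In wild-type Wnt-high AE the mean fell from 14.3 mitosis UMIs per cell (13.7 to 15.0) in 141 cells with 0 Cdkn1c UMIs to 9.75 (9.32 to 10.2) in 196 cells with 1 to 4 and 4.16 (3.62 to 4.76) in 51 cells with 5 or more. In SP3-null Wnt-high AE the means were 10.6, 8.17 and 4.49. In Wnt-low AE they were 15.4, 15.0 and 9.02 in wild-type and 13.2, 14.3 and 8.60 in SP3-null cells, so the middle group did not differ from the first in one direction. In each of the 9 profiles with at least 20 cells in both outer groups, the mean was lower in cells with 5 or more Cdkn1c UMIs, with ratios of 0.29 to 0.83. Across cells the Spearman rho of Cdkn1c with the mitosis sum was -0.41 to -0.08 over the 18 profiles, with a median of -0.21. For genes of DNA synthesis (S phase) the mean was lower in the same 9 profiles, but with ratios of 0.48 to 0.99. Their rho with Cdkn1c lay on both sides of 0, at -0.30 to 0.26 with a median of -0.08. The intervals of these means cover counting error only and not the spread between cells.

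**Figure D4:**
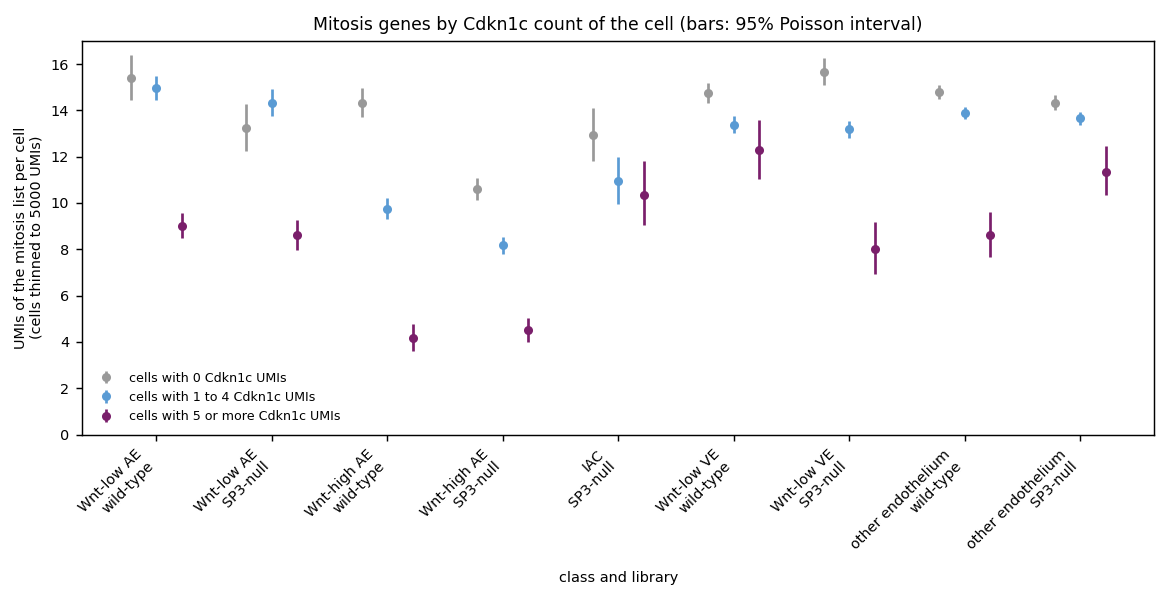
Mean mitosis UMIs per cell, in cells thinned to 5000 UMIs, for cells with 0, 1 to 4, and 5 or more Cdkn1c UMIs, by class and library, with counting 95% intervals as bars. Wild-type Wnt-high AE falls from 14.3 to 4.16, and SP3-null IAC has means of 12.9 to 10.4.

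In IAC the group with 5 or more Cdkn1c UMIs was small, and in wild-type cells it fell short of the 20 cells asked for above. In wild-type IAC the means were 15.8 (14.8 to 16.9) in 55 cells with 0 Cdkn1c UMIs, 11.1 (10.3 to 12.0) in 56 cells with 1 to 4 and 4.13 (3.17 to 5.30) in 15 cells with 5 or more. In SP3-null IAC they were 12.9 (11.8 to 14.1) in 39 cells, 11.0 (9.97 to 12.0) in 42 cells and 10.4 (9.06 to 11.8) in 22 cells. The group with 5 or more was 11.9% of wild-type and 21.4% of SP3-null IAC cells. The intervals leave out the spread between so few cells, and whether the libraries differed here was not tested. Over all IAC cells the mitosis genes stood at 2676 and 2489 CPM.

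Conflux AE, the class richest in Cdkn1c, was the poorest in mitosis transcripts in wild-type cells, at 847 CPM. There 10 of 21 mitosis genes were lower than in AE in both libraries, against 3.16% of all genes. In that class 82.1% and 81.1% of cells held 5 or more Cdkn1c UMIs. The mitosis sum of pre-HE was 1824 wild-type CPM and 1147 SP3-null CPM, with Cdkn1c at 763 and 959 CPM, and HE held 2719 and 1966 CPM with Cdkn1c at 780 and 1018 CPM. In conflux AE mitosis transcripts were higher in the SP3-null library, at 1149 CPM, and so was Cdkn1c. H19 had a rho with the mitosis sum of -0.39 to 0.02, while Peg3 (-0.13 to 0.14), Plagl1 (-0.15 to 0.10) and Meg3 (-0.17 to 0.20) had values on both sides of 0.

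The genes most like each imprinted gene were ranked by Pearson r of log2(CPM + 1) over the 18 profiles, among 10987 genes with at least 200 UMIs. The profiles share libraries, depth and class assignments, and the values are descriptions. The closest to Peg3 was its neighbour Usp29 (0.95), followed by Hoxb2 (0.95) and Col27a1 (0.95). H19 was most like the semaphorin gene Sema3g (0.97), Glg1 (0.97) and B4gat1 (0.97), and Igf2 like Dennd5a (0.97), Ralgapa1 (0.97) and Pld1 (0.96). Cdkn1c was most like Vegfc (0.93), Cdk19 (0.92) and Zfp711 (0.92). Meg3 was most like Foxc1 (0.97), Chst2 (0.97) and Amotl1 (0.96), and Plagl1 like Dchs1 (0.98), Adam12 (0.98) and Plvap (0.97). Dlk1 was most like Irf8 (0.96), a transcription factor gene of myeloid cells, Agpat5 (0.93) and Cmtm7 (0.92). IAC cells with at least 3 macrophage marker UMIs held 6.86 wild-type (0.83 to 24.8) and 12.0 SP3-null CPM (3.26 to 30.6) of Dlk1, from 2 and 4 UMIs. The other IAC cells held 43.3 (37.0 to 50.3) and 35.6 CPM (29.3 to 42.8), and the SP3-null intervals overlapped. The cell type that holds Dlk1 within IAC was not tested.

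Igf2r was most like Col5a2, Tjp1 and Map4k4 (0.98 each), Grb10 like Ddah2 (0.95), Cdc16 (0.94) and Dbn1 (0.94), and Ndn like Ece1, Ktn1 and Iffo2 (0.97 each). Among the 10 imprinted genes themselves, Igf2r with Grb10 and with Ndn both gave 0.91, Igf2r with Dlk1 gave -0.94, and Meg3 with Cdkn1c gave -0.21. Dlk1 stood at 4.39 CPM or less outside IAC. Its r values, that with Irf8 among them, thus lean on the IAC profiles, where Dlk1 was high and Igf2r low.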

How the data were processed

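Sorted aortic endothelium of 1 wild-type and 1 SP3-null pool was profiled with the Chromium 3' version 3 kit. The authors ran Cell Ranger (version not stated in the sources used here) against mm10 (GRCm38), removed barcodes under 1000 UMIs or genes and contaminating types, and classed each cell by a majority vote among its 3 nearest cells of a published reference map, drawing at random where votes tied. The deposited matrix holds unnormalized UMI counts for every gene in every cell, and matrix sums lay 0 to 197 UMIs per cell below the deposited totals. The fraction of mitochondrial UMIs per cell is the authors' own and served 1 alternative. The deposited size factor of each cell, a ratio to a common value, was not used.

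Raw UMIs were summed per library and class, and divided by summed totals to give CPM. Intervals at 95% are exact Poisson for levels, exact conditional binomial for ratios and Clopper-Pearson for shares of cells. PCR copies are collapsed by UMI, and the intervals hold counting error alone. No test was made, since each genotype had 1 library. Genes with at least 50 UMIs entered counts and medians, and only classes of 30 or more cells per library were described. Thinning drew 5000 UMIs from each cell and left out shallower ones, that is 464 wild-type and 325 SP3-null cells of the summed endothelium. No doublet caller was run, so doublets remained, and 1 alternative left out the 5% deepest cells.

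The genes and lists were chosen with earlier results of these data known. Named are all 10 genes and Sp3. From each list come the 3 members with the most UMIs and the highest and lowest ratio among those with at least 200 UMIs, and for each imprinted gene the 3 genes most like it. List members outside this rule, among them Airn, Usp29, Magel2, Peg10, Asb4, Cdkn2c, Zfp57, Dnmt3a and Dnmt3b, were named after their values were seen. Alternatives were edgeR 4.0.16 TMM and DESeq2 1.42.0 size factors, other weights of cells and classes, other sets of cells, thinning, and filters on cells and genes. Chosen after seeing the data were a filter on cells of other types without Nes and Krt18, the filters on HE and IAC cells, and the thinned and top-cell values within classes. Only the ratios between libraries and their intervals were tried on simulated data. These were Poisson counts for the summed endothelium, which lack the spread between cells and between libraries. Python 3.11.15, numpy 2.4.6, scipy 1.17.1, pandas 2.3.3, matplotlib 3.10.9 and R 4.3.3 were used.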

Additional observations from a re-analysis of the deposited data

Results flagged for a closer look

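For 3 genes the difference between the libraries had opposite directions in different classes, with counting intervals on opposite sides of 0, and with 1 library per genotype the difference between classes was not tested. H19 had a log2 ratio of 0.31 in Wnt-low AE and -0.22 in pre-HE. Peg3 had a ratio of 0.33 in HE and -0.63 in Wnt-high AE, and the HE interval reached 0 without the 3 cells richest in Peg3. Grb10 had a ratio of 0.45 in HE and -0.15 in Wnt-low VE, and the HE interval held 0 without cells carrying neural markers.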

How the results depend on the processing

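No paired analysis was possible because each genotype had 1 library, and for the same reason no replicate could be left out. Over the planned and added alternatives, 62 values of the main counts and medians kept their direction and size, and 4 did not, while of the ratios of single genes 154 stayed within their counting interval, 43 moved beyond it, and 7 changed sign from an interval clear of 0. The 4 were 1 gene at least 0.5 log2 units higher with each cell weighted alike (Dlk1, 0.60), 1 gene lower in arterial endothelium alone (Peg3, -0.59), and a median ratio of 0.012 with each class weighted alike and 0.0048 over all cells, in place of -0.06. These 7 came where classes were weighted differently. Cdkn1c was 0.0047 with each cell alike, 0.16 with each class alike, 0.030 over all cells and 0.071 in venous endothelium alone, and with each class alike H19 was -0.049, Grb10 0.014 and Igf2r 0.0093. Over 15 alternatives Peg3 ranged from -0.59 to -0.21, Plagl1 from -0.29 to -0.03 and Meg3 from 0.07 to 0.27, with no change of sign, but only 8, 9 and 7 of these values lay within the counting interval of the reported ratio. Dlk1 ranged from -0.14 to 1.33 and rests on few UMIs. The number of genes lower in IAC than in AE was 5 to 7 and the number higher was 1. The planned filter on cells of other types counted Nes, which endothelium expresses, and kept 65.3% of wild-type and 66.2% of SP3-null cells, whereas 99.3% were kept in each library without Nes and Krt18. Depth limits Igf2 and Dlk1 in single classes, and HE and pre-HE for all genes.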
